A study of Homo sapiens with 18 samples.

Results

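The genes described here are 34 components and targets of the integrated stress response that centres on the transcription factor ATF4. They were chosen by name: ATF4 itself, transcription factors that work with it or downstream of it, kinases and a phosphatase subunit that act on the translation factor eIF2, and genes for amino acid transport, amino acid synthesis and secreted stress proteins. All 34 had a probe set among the 19775 genes of the array, and 31 of them passed the filter on low signals and were tested.

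In the integrated stress response, kinases that sense amino acid shortage, endoplasmic reticulum stress, haem shortage or mitochondrial stress phosphorylate eIF2. General translation then slows, while ATF4 mRNA is translated more efficiently. ATF4 protein, in pairs with C/EBP family partners, switches on genes that import and make amino acids, and the factor CHOP, which DDIT3 encodes. ATF4 activity is thus set largely at translation, which an array of RNA does not read.

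The cells were HCT116, an established human colorectal carcinoma line, in 9 isogenic clones with 2 biological replicate arrays each, 18 arrays in all. The parental line carried no targeted allele. Clone 16F8 was targeted with IDH1 R132C but does not express the mutant allele, so that its IDH status at the mRNA level is wild-type. The 3 IDH1-mutant clones were 2C11 and 2H1 (R132H) and 3A4 (R132C), and the 4 IDH2-mutant clones were 8G12 and 17H5 (R140Q) and 47C2 and 45G3 (R172K). All 8 targeted clones are heterozygous, were grown for 6 days and, like the parental line, were left untreated. IDH1 and IDH2 encode isocitrate dehydrogenases of the cytosol and of mitochondria, and these mutations are known for making the enzymes produce 2-hydroxyglutarate. A genotype is represented by 1 or 2 clones, so a difference between clones is not by itself a difference between genotypes. The 2 replicates of a clone measure only the spread of that clone.

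Values are MAS5 signals on a linear scale, and differences are on the scale of log2(signal + 2.2), with a standard error from a limma fit over all 12537 genes tested. Arrays of the same clone correlated at 0.9869 to 0.9952. Epithelial identity was present in part: KRT8, KRT18, KRT19, EPCAM and CDH1 passed the filter, while the other 5 of 10 colon epithelial markers, CDH17, LGALS4, TFF3, CEACAM5 and VIL1, stayed at or under 14. Of 8 fibroblast markers COL1A1 alone passed, and the summed signal of that list lay between 202.8 and 374.5 in the 18 arrays. Of 8 haematopoietic markers LYZ and HBB passed, with a summed signal from 24.2 to 165.4. The clone means of that sum were 26.5 in parental, 32.1 in 16F8, 42.95 in 17H5 and 40.7 in 8G12. In the R172K clones 45G3 and 47C2 they were 52.25 and 47.6, and in the IDH1-mutant clones 3A4, 2C11 and 2H1 they were 73.55, 80.5 and 159.9. The other 4 markers with a probe set stayed at or under 10.4. In 4 arrays (parental replicate 1, 2C11 replicate 1, 16F8 replicate 1 and 8G12 replicate 2) the mean signal of the poly-A spike-in probe sets was 1.62 times that of the other 14.

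ATF4 and its C/EBP partners are known to bind a composite element with the core TGATGNAA, of which TGATGCAA is the form often called the amino acid response element. Both were searched on both strands of promoter windows from RefSeq (GRCh38.p14), which run from 250 bases before to 50 after each annotated start. TGATGNAA was found in windows of 9 of the 28 members that have one, and in 4.46% of all 27305 genes that have one (3.62% of all 35116 windows). TGATGCAA, each match of which is also a TGATGNAA match, was found in 5 of the 28, CHAC1, SLC1A4, CEBPG, JDP2 and FGF21, and in 1.08% of all genes with a window (0.866% of all windows). The matches of 5 members whose match lies before the start are shown, since these are genes whose levels differed between the clones. Each is printed on the strand of its gene with the flanking bases, and the capitals mark the match.
ATF3 (chr1:212565186-212565253, plus strand): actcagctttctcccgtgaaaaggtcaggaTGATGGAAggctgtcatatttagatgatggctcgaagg
CHAC1 (chr15:40953232-40953299, plus strand): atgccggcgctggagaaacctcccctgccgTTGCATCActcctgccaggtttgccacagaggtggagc
ASNS (chr7:97872439-97872506, minus strand): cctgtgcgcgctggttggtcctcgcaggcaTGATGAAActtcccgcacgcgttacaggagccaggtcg
CEBPG (chr19:33374041-33374108, plus strand): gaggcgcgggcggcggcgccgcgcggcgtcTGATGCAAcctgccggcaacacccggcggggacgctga
JDP2 (chr14:75427976-75428021, plus strand): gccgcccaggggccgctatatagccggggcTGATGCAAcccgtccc
In CHAC1 the match reads TGATGCAA on the other strand. It ends 202 bases before the start in CHAC1, 184 in ATF3, 61 in ASNS, 35 in CEBPG and 9 in JDP2. A match of letters is a description and not evidence that a factor binds there.

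Many of the ATF4 targets formed a high and a low state across the clones, and each state held both wild-type and mutant clones. For these, signals were high in the parental line and in the R140Q clone 17H5. They were low in the wild-type clone 16F8, in all 3 IDH1-mutant clones and in both R172K clones. The other R140Q clone 8G12 was high for some targets, intermediate for others and among the low clones for several. ATF5 had its lowest mean in 8G12, SLC7A11 was higher in 3A4 than in 8G12, and GDF15 in 2H1 overlapped 17H5. Differences among the 9 clones were called (limma's moderated F test, Benjamini-Hochberg adjusted p under 0.05) for 26 of the 31 tested members, against 52.4% of all genes tested. The 26 include CBS, which passed the filter only through 2H1 and 3A4, where it was highest. The median range of the clone means was 1.38 on the log2 scale for the members and 0.63 for all genes, and 20 of the 31 members ranged over more than 1, as did 21.7% of all genes. The mean was highest in parental for 17 members and in 17H5 for 8. Parental and 17H5 held the 2 highest means for 22 of the 31 members, compared with 10.3% of all genes tested. For 16 members the 3 highest means were those of parental, 17H5 and 8G12, which was the case for 5.9% of all genes. The 5 members without a called difference were ATF4, EIF2AK1, EIF2AK3, GPT and ALDH18A1. The arrays read bulk RNA, so fewer cells with a transcript and less of it per cell cannot be told apart.

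**Figure D1:**
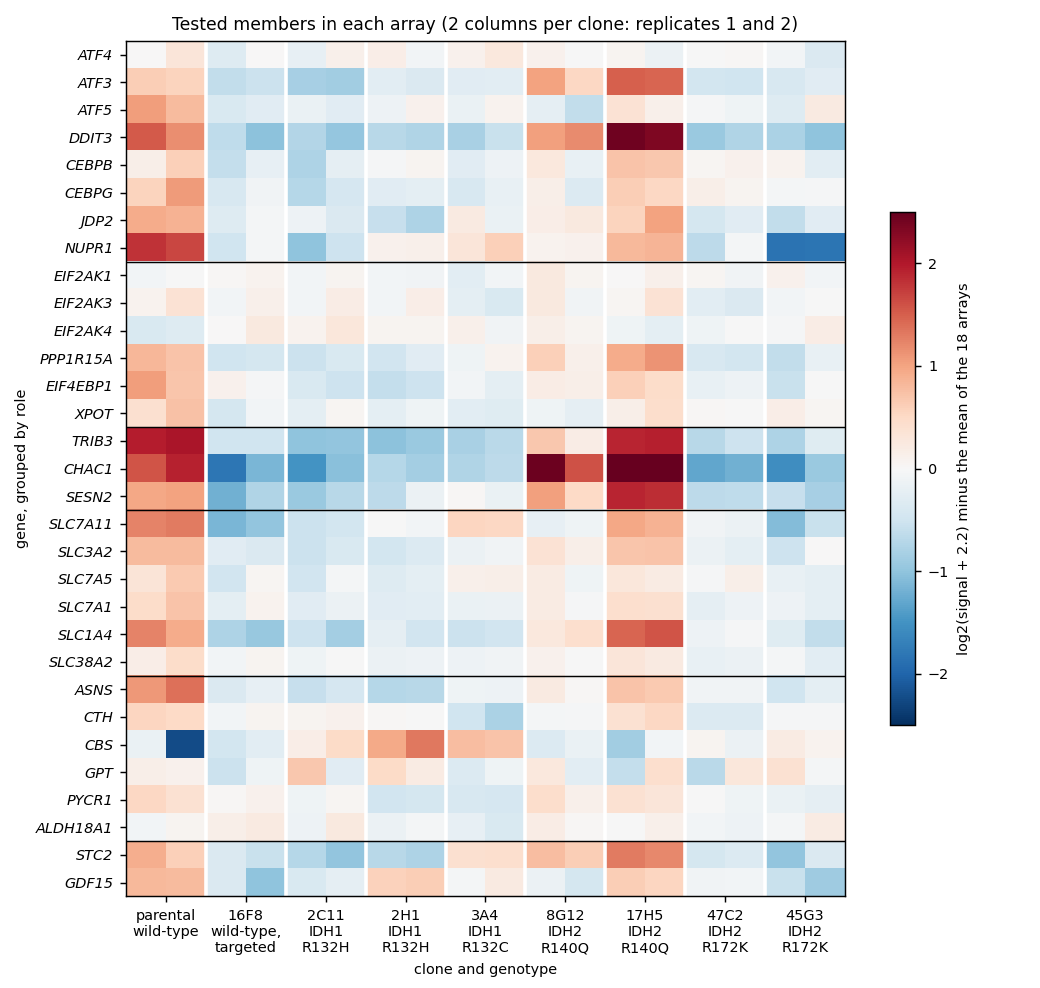
Heat map of the 31 tested members (rows, grouped by role) in the 18 arrays (columns, 2 per clone). Colour gives log2(signal + 2.2) minus the mean of that gene over the arrays; red is higher and blue lower. Most rows are red in parental and 17H5 and blue in 16F8, the IDH1-mutant and the R172K clones, while ATF4, EIF2AK1, EIF2AK3 and ALDH18A1 stay pale.

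ATF4 mRNA was abundant and differed little. Its signals were 3015.0 and 3706.9 in parental, 3165.6 and 2727.2 in 17H5, 3251.3 and 2975.0 in 8G12, and 2404.9 and 3042.8 in 16F8. The 6 arrays of the IDH1-mutant clones lay between 2594.1 and 3593.3 with a median of 3247, and the R172K clones gave 3001.1 and 3046.1 (47C2) and 2868.5 and 2348.2 (45G3). Parental, 17H5, 8G12 and 16F8 overlapped each other. Both arrays of parental lay above those of 45G3, and both of 3A4 lay above those of 45G3, 16F8, 17H5 and 47C2. The clone means spanned only 0.39 on the log2 scale. The difference of 16F8 from parental was -0.31 ± 0.14 (limma adjusted p = 0.147). With quantile normalization this difference was -0.21 ± 0.07 and passed (0.0474), as did that of 17H5 from 16F8, 0.24 ± 0.07 (0.0436).

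DDIT3, which encodes the stress factor CHOP, had signals of 423.6 and 324.1 in parental, 790.5 and 732.6 in 17H5, 296.8 and 328.3 in 8G12, and 92.2 and 70.3 in 16F8. The IDH1-mutant arrays ran from 73.2 through a median of 85.2 to 97.1, and the R172K arrays read 74.9 and 84.4 (47C2) and 82.8 and 71.0 (45G3). The low clones overlapped each other and lay well below parental and both R140Q clones, while 8G12 overlapped parental and 17H5 stood above every other clone. DDIT3 fell by 2.17 ± 0.17 in 16F8 against parental on the log2 scale (limma adjusted p = 1.34e-07). It rose in 17H5 by 1.03 ± 0.17 against parental (0.00068) and by 3.21 ± 0.17 against 16F8 (5.52e-09), and in 8G12 by 1.93 ± 0.17 against 16F8 (2.71e-06).

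ATF3, a stress-induced factor of the same bZIP family, read 531.5 and 515.9 in parental, 987.0 and 964.1 in 17H5, 701.3 and 496.5 in 8G12, and 227.6 and 238.1 in 16F8. In the IDH1-mutant clones it lay between 189.1 and 291.2 with a median of 278.8. The R172K clones gave 253.5 and 247.3 (47C2) and 262.6 and 284.4 (45G3). The arrays of 8G12 spanned the parental values, 17H5 was higher than both, and the low clones did not reach any of the 3. ATF3 fell by 1.16 ± 0.13 in 16F8 against parental (limma adjusted p = 6.55e-06) and rose in 17H5 by 2.06 ± 0.13 (2.12e-08) and in 8G12 by 1.33 ± 0.13 (9.26e-06) against 16F8. The second ATF3 probe set that passed the filter gave -1.38, 2.26 and 1.5 for these 3 differences.

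ATF5, another bZIP factor whose translation is controlled like that of ATF4, was highest in the parental line, at 420.8 and 355.3 on the probe set used. 17H5 read 259.8 and 220.7, and the other 14 arrays lay between 131.7 and 238.7, so that 17H5 overlapped them and parental did not. ATF5 fell against parental, with differences of -1.26 ± 0.18 in 16F8 (limma adjusted p = 8.49e-05), -0.69 ± 0.18 in 17H5 (0.018) and -1.34 ± 0.18 in 8G12 (5.81e-05). Against 16F8 it did not pass in 17H5 (0.57 ± 0.18, adjusted p = 0.0552). The other ATF5 probe sets that passed the filter gave larger differences of 17H5 from 16F8, 1.29, 0.8 and 0.74. For 16F8 against parental they gave -1.45, -1.21 and -1.0. For 8G12 against 16F8 they gave 0.26, 0.21 and 0.17, where the probe set used gave -0.08.

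The clone means of the C/EBP factors spanned 1.2 (CEBPB) and 1.38 (CEBPG) on the log2 scale. CEBPB read 1304.8 and 1778.5 in parental, 1926.7 and 1884.4 in 17H5 and 771.6 and 1010.1 in 16F8. The 2 arrays of 8G12 differed, with 1401.7 and 1030.4. CEBPG, a dimer partner of ATF4 whose promoter holds the TGATGCAA match printed above, read 1562.7 and 2227.6 in parental, 1616.1 and 1520.4 in 17H5, 1177.6 and 830.8 in 8G12, and 800.3 and 1000.9 in 16F8. In 17H5 both were higher than in 16F8, CEBPB by 1.11 ± 0.19 (limma adjusted p = 0.00134) and CEBPG by 0.81 ± 0.17 (0.00645). In 8G12 neither passed, at 0.44 ± 0.19 (0.639) and 0.14 ± 0.17 (0.979).

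JDP2, a repressor that pairs with bZIP factors, and NUPR1, a small stress-induced chromatin protein, had low signals. JDP2 read 62.7 and 59.8 in parental, 47.7 and 66.3 in 17H5, 36.1 and 38.0 in 8G12 and 24.9 and 30.6 in 16F8. It lay between 17.8 and 37.5 in the IDH1-mutant clones (median 26.0), and at 22.8 and 25.9 in 47C2 and 19.9 and 25.8 in 45G3. NUPR1 read 78.0 and 71.3 in parental and 38.1 and 39.6 in 17H5, the 2 clones that stood above all others. It was 22.4 and 22.7 in 8G12, 14.1 and 20 in 16F8, 12.4 and 20.1 in 47C2, and 9.3 to 32.4 (median 22.75) in the IDH1-mutant clones. Its lowest values were 4.2 and 4.3 in 45G3, where it fell by 1.56 ± 0.25 against 16F8 (limma adjusted p = 0.002). Both rose in 17H5 against 16F8, JDP2 by 0.97 ± 0.22 (0.0121) and NUPR1 by 1.11 ± 0.25 (0.0118). Neither passed once 16F8 replicate 1 (JDP2 adjusted p = 0.107, NUPR1 0.123) or 17H5 replicate 2 (0.172 and 0.0986) was left out.

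**Figure D2:**
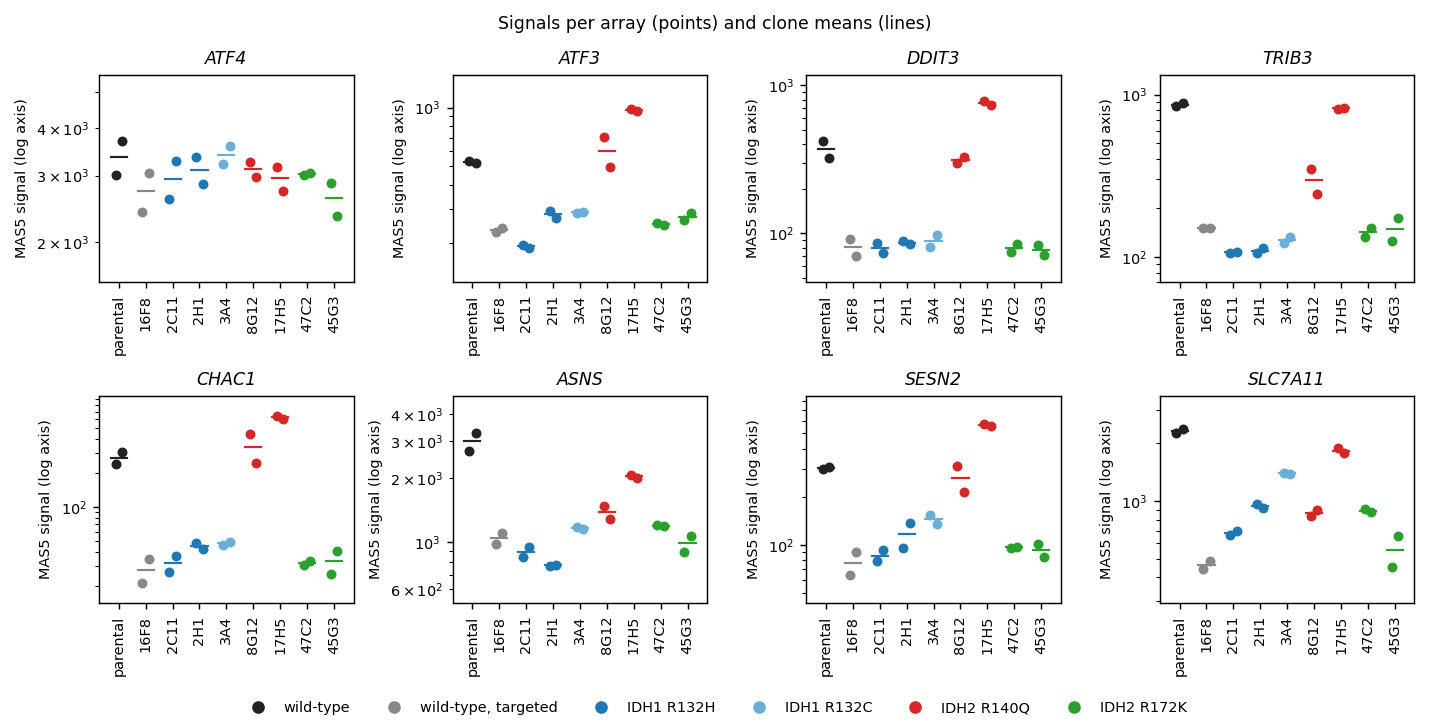
MAS5 signals of 8 members (y axes, log scale) in each of the 9 clones (x axes); points are the 2 arrays of a clone, lines are clone means and colours are genotypes. ATF4 lies between 2348.2 and 3706.9 in all arrays, whereas DDIT3 and CHAC1 are high in parental, 17H5 and 8G12 and low in the other 6 clones; TRIB3 is high in parental and 17H5, with 8G12 between them and the low clones.

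Of the stress regulators, CHAC1 differed most. CHAC1 degrades glutathione in the cytosol and is induced through ATF4, ATF3 and CHOP. Its signals were 239.9 and 306.1 in parental, 645.2 and 597.0 in 17H5, 439.5 and 242.5 in 8G12, and 21.1 and 34.5 in 16F8. The IDH1-mutant arrays ran from 26.4 through a median of 44.45 to 49.3, and the R172K arrays read 30.7 and 33.0 (47C2) and 25.5 and 40.5 (45G3). No array of the 6 low clones exceeded 49.3, and 8G12 overlapped parental. CHAC1 fell by 3.22 ± 0.27 in 16F8 against parental (limma adjusted p = 4.03e-07), and against 16F8 it rose by 4.41 ± 0.27 in 17H5 (2.12e-08) and 3.49 ± 0.27 in 8G12 (1.26e-06).

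TRIB3 encodes a pseudokinase that is induced by ATF4 and CHOP and restrains them in turn. It read 846.8 and 887.3 in parental, 815.0 and 831.1 in 17H5, 346.6 and 245.3 in 8G12, and 150.9 and 151.2 in 16F8. The IDH1-mutant clones lay between 105.0 and 133.4, with a median of 109.9, and the R172K clones at 132.7 and 150.3 (47C2) and 125.1 and 173.7 (45G3). Parental and 17H5 were nearly level, with a difference of -0.07 ± 0.16 (limma adjusted p = 0.81), and 8G12 lay between them and the low clones. The difference of 8G12 from 16F8, 0.94 ± 0.16, passed (0.00616), but not without 8G12 replicate 1 (0.69, adjusted p = 0.162), 16F8 replicate 1 (0.0581) or 16F8 replicate 2 (0.0617).

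SESN2, a sestrin that signals amino acid shortage to mTORC1, read 299.5 and 305.6 in parental, 573.3 and 550.8 in 17H5, 310.7 and 214.1 in 8G12, and 64.6 and 89.7 in 16F8. It was 78.5 to 154.5 in the IDH1-mutant clones, with a median of 115.2, and 95.1 and 97.1 in 47C2 and 101.2 and 84.3 in 45G3. Again 17H5 lay above all, 8G12 spanned parental, and the low clones did not overlap them. Among the low clones 3A4, at 154.5 and 134.8, was higher than 16F8 by 0.90 ± 0.20 (limma adjusted p = 0.00263).

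The eIF2 kinases differed less than most targets, with clone means that spanned 0.54 for EIF2AK3, 0.54 for EIF2AK4 and 0.31 for EIF2AK1 on the log2 scale, against a median of 1.38 for the members. EIF2AK3 (the kinase PERK, of endoplasmic reticulum stress) ranged from 130.4 to 220.2 and EIF2AK1 (HRI, of haem and mitochondrial stress) from 1102.5 to 1558.2 over the 18 arrays, with no called difference among the clones. The highest means of EIF2AK3 were those of parental, 17H5 and 8G12, in the order of many targets. In single comparisons EIF2AK3 was lower than in parental in 3A4 and 47C2, each by a difference of -0.54 ± 0.16 (limma adjusted p = 0.013 and 0.0182). EIF2AK4 (GCN2, of amino acid shortage) went the other way from the targets. It was lowest in parental, at 371.8 and 389.9, and read 448.8 and 410.4 in 17H5, 540.4 and 509.9 in 8G12 and 487.6 and 573.9 in 16F8. It rose in 16F8 against parental by 0.47 ± 0.12 (0.00821), the only member called higher in that comparison, and its second probe set gave 0.64. For EIF2AK1 the second probe set, with lower signals, gave 0.58 in that comparison, where the probe set used gave 0.09. The activity of these kinases was not measured.

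PPP1R15A encodes GADD34, the stress-induced phosphatase subunit that returns eIF2 to its active form. It read 182.8 and 168.6 in parental, 194.9 and 222.5 in 17H5, 155.6 and 110.5 in 8G12, and 71.2 and 74.0 in 16F8. The IDH1-mutant clones gave 69.6 to 107.7 (median 80.15) and the R172K clones 76.7 and 73.0 (47C2) and 65.5 and 88.5 (45G3). Parental and the R140Q clones lay above all other arrays. PPP1R15A fell by 1.25 ± 0.18 in 16F8 against parental (limma adjusted p = 9.27e-05) and rose against 16F8 in 17H5 by 1.49 ± 0.18 (5.31e-05) and in 8G12 by 0.83 ± 0.18 (0.0354). The last of these calls was lost when any of 9 of the 18 arrays was left out, and without 8G12 replicate 1 the difference was 0.59 (adjusted p = 0.534).

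EIF4EBP1, the translation repressor 4E-BP1, read 864.3 and 674.2 in parental, 628.2 and 571.0 in 17H5, 476.4 and 464.4 in 8G12, and 450.9 and 406.9 in 16F8. It was 276.2 to 397.4 (median 306.9) in the IDH1-mutant clones and 367.8 and 384.6 in 47C2 and 281.4 and 414.9 in 45G3. It fell by 0.83 ± 0.15 in 16F8 against parental (limma adjusted p = 0.000906), and against 16F8 it was 0.48 ± 0.15 in 17H5, which did not pass (0.0597). XPOT, the exportin of tRNAs, ranged from 584.9 to 1318.3 and fell by 0.82 ± 0.14 in 16F8 (0.000537).

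Amino acid transporters moved with the targets in varying degree. SLC7A11, the cystine importer xCT, read 2271.9 and 2367.5 in parental, 1880.5 and 1778.9 in 17H5, 835.0 and 898.9 in 8G12, and 439.1 and 488.2 in 16F8. Unlike DDIT3 or CHAC1 it was graded among the low clones, with 663.1 and 698.4 in 2C11, 966.0 and 917.6 in 2H1, 1402.6 and 1380.7 in 3A4, 906.2 and 870.7 in 47C2 and 454.4 and 654.9 in 45G3. 16F8 and 45G3 overlapped at the bottom, and 3A4 stood above 8G12. SLC7A11 fell by 2.32 ± 0.13 in 16F8 against parental (limma adjusted p = 2.72e-09). Against 16F8 it rose in 17H5 (1.98 ± 0.13, 2.43e-08), 3A4 (1.58 ± 0.13, 7.2e-08), 2H1 (1.02 ± 0.13, 2.04e-05), 47C2 (0.94 ± 0.13, 0.000114), 8G12 (0.90 ± 0.13, 0.000772) and 2C11 (0.55 ± 0.13, 0.0242). The call in 8G12 was lost with the probe set of highest variance (0.82 ± 0.28, 0.438) and with the mean of probe sets (0.71 ± 0.17, 0.0771). The call in 2C11 was lost without either 2C11 array or without 16F8 replicate 2, and in 45G3 the difference was 0.24 ± 0.13 (0.42).

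SLC1A4, a carrier of alanine, serine and cysteine, read 294.3 and 237.7 in parental, 340.2 and 372.3 in 17H5, 148.7 and 165.2 in 8G12, and 71.4 and 63.2 in 16F8. The IDH1-mutant clones lay between 67.9 and 105.4 (median 86.9) and the R172K clones at 112.6 and 120.2 (47C2) and 100 and 79.4 (45G3). 17H5 was highest, and 8G12 lay between parental and the low clones without touching either. It fell by 1.94 ± 0.16 in 16F8 against parental (limma adjusted p = 4.03e-07) and rose in 17H5 by 2.37 ± 0.16 (6.77e-08) and in 8G12 by 1.2 ± 0.16 (0.00065) against 16F8. SLC3A2, the heavy chain that brings xCT and LAT1 to the cell surface, read 717.1 and 712.3 in parental, 667.8 and 678.1 in 17H5, 527.2 and 452.4 in 8G12 and 335.8 and 320.0 in 16F8. It rose in 17H5 by 1.03 ± 0.14 against 16F8 (0.000145), and in 8G12 the difference of 0.57 ± 0.14 did not pass (0.0742).

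The abundant carriers changed least. SLC7A5 (LAT1, for large neutral amino acids) ranged from 1531.3 to 3367.4 over the arrays, SLC7A1 (CAT1, for cationic amino acids) from 1464.0 to 2923.8 and SLC38A2 (SNAT2, for small neutral amino acids) from 2317.8 to 3869.4. Their differences between 16F8 and parental were -0.70 ± 0.16, -0.66 ± 0.11 and -0.31 ± 0.10, all lower in 16F8 (limma adjusted p = 0.00562, 0.000592 and 0.0388). Of the 3, SLC7A1 alone passed in 17H5 against 16F8, at 0.49 ± 0.11 (0.0133), and none passed in 8G12.

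Among the enzymes of amino acid metabolism, ASNS, which makes asparagine, was abundant, and its clone means spanned 1.93. It read 2689.9 and 3269.9 in parental, 2076.8 and 1995.1 in 17H5, 1472.4 and 1285.4 in 8G12, and 978.8 and 1098.9 in 16F8. The IDH1-mutant clones ran from 770.1 through a median of 894.9 to 1176.9, and the R172K clones gave 1195.1 and 1192.1 (47C2) and 895.4 and 1068.3 (45G3). Parental, 17H5 and 8G12 came in that order without overlap, above all other arrays. ASNS fell by 1.51 ± 0.11 in 16F8 (limma adjusted p = 9.12e-08) and was lower in 17H5 too, at -0.54 ± 0.11 (0.00445), against parental. Against 16F8 it rose in 17H5 by 0.97 ± 0.11 (3.83e-05) but in 8G12 the difference of 0.41 ± 0.11 did not pass (0.171).

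CTH, which releases cysteine in transsulfuration, read 288.8 and 279.3 in parental and 260.3 and 283.7 in 17H5, and 114.2 to 212.9 in the other 14 arrays, with the lowest values in 3A4. PYCR1, of proline synthesis in mitochondria, ranged from 247.8 to 498.2 and fell by 0.38 ± 0.11 in 16F8 against parental (limma adjusted p = 0.0244). In 2H1 and 3A4 it was lower than in 16F8, with differences of -0.53 ± 0.11 (0.00411) and -0.48 ± 0.11 (0.005). ALDH18A1, which acts upstream of PYCR1, ranged from 687.1 to 1063.3, and the aminotransferase GPT, with low signals of 17.6 to 48.1, also gave no called difference among the clones. CBS, the first enzyme of transsulfuration, was close to background, with 8.3 and 0.3 in parental, 4.3 and 9.1 in 17H5, 7.1 and 8.4 in 8G12, 6.4 and 7.6 in 16F8, and 11 to 27.3 (median 17.5) in the IDH1-mutant clones. The R172K clones gave 10.3 and 8.5 (47C2) and 11.5 and 10.4 (45G3). It was called higher than parental in 2C11 (1.53 ± 0.46, 0.0212), 2H1 (2.34 ± 0.46, 0.000939), 3A4 (1.94 ± 0.46, 0.00331) and 45G3 (1.36 ± 0.46, 0.0347). CBS passed the filter on low signals only through 2H1 and 3A4, the clones where it was highest, so these calls do not count as support. These differences rest on a parental pair that itself spans 0.3 to 8.3, and without parental replicate 2 the difference of 16F8 turned from 0.84 to -0.19.

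The secreted proteins STC2, a calcium-regulating glycoprotein, and GDF15, a stress hormone of the TGF-beta family, differed in the detail of the low clones. STC2 read 869.5 and 698.1 in parental, 1129.8 and 1062.4 in 17H5, 782.8 and 708.2 in 8G12, and 355.9 and 312.2 in 16F8. It was 280.7 and 231.0 in 2C11, 285.2 and 269.2 in 2H1, 338.5 and 364.0 in 47C2 and 230.8 and 356.1 in 45G3, but 606.8 and 620.2 in 3A4. 3A4 thus stood between the low clones and parental, 0.88 ± 0.16 above 16F8 (limma adjusted p = 0.000688). Against 16F8, STC2 rose in 17H5 by 1.71 ± 0.16 (3.4e-06) and in 8G12 by 1.15 ± 0.16 (0.000804).

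GDF15 read 1326.9 and 1305.4 in parental, 1154.2 and 1090.6 in 17H5, 685.0 and 559.2 in 8G12, and 588.8 and 376.8 in 16F8. Here 2H1, at 1119.7 and 1149.8, overlapped 17H5. The other clones read 581.6 and 648.8 (2C11), 730.4 and 881.6 (3A4), 705.3 and 723.8 (47C2) and 512.7 and 408.4 (45G3). GDF15 rose against 16F8 in 2H1 (1.26 ± 0.16, limma adjusted p = 3.83e-05), 17H5 (1.25 ± 0.16, 0.000142), 3A4 (0.77 ± 0.16, 0.00228) and 47C2 (0.60 ± 0.16, 0.0366). In 8G12 the difference of 0.39 ± 0.16 did not pass (0.631).

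The 3 members that were not tested had signals near background in every array. VLDLR, a lipoprotein receptor, lay between 0.3 and 6.1, SLC6A9, a glycine transporter, between 2.3 and 18.1, and the hormone FGF21 between 1.1 and 10.0.

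Against the parental line, most members fell in 6 of the 8 targeted clones. In 16F8, which expresses no mutant IDH, 24 of the 31 members were lower and EIF2AK4 was higher, with a median difference of -1.06, while 9.57% of all genes were called lower, 12.4% higher, and the median of all genes was 0.018. The counts in the IDH1-mutant clones were 24 lower and 2 higher in 2C11 (12.5% and 13.4% of all genes), 22 and 2 in 2H1 (16.3% and 14.7%) and 23 and 2 in 3A4 (19.6% and 17.6%). The R172K clones gave 23 lower and 0 higher in 47C2 (13.8% and 14.2%) and 23 and 2 in 45G3 (14.7% and 15.1%). Member medians in these 5 clones lay between -1.15 (2C11) and -0.85 (3A4). The TRIB3 differences from parental, each ± 0.16, were -2.5 for 16F8, -3.00 and -2.97 for the R132H clones 2C11 and 2H1, -2.74 for 3A4, and -2.60 and -2.54 for the R172K clones 47C2 and 45G3, with limma adjusted p of at most 1.46e-08. The few members called higher were EIF2AK4 and CBS, and with single arrays left out their number in a clone lay between 0 and 2. Calls of CBS do not count as support, since it passed the filter only through 2H1 and 3A4. Without the 4 arrays with high poly-A controls, 21 members were lower in 16F8, 22 in 2C11, 23 in 2H1 and 25 in each of 3A4, 47C2 and 45G3, with 1 or 2 higher. These comparisons share the parental arrays, so a deviation of parental enters all of them. Cell type markers differed in the same comparisons. The epithelial marker CDH1 was lower than parental in 16F8 by a difference of -0.61 ± 0.14 (limma adjusted p = 0.00425), in 2C11 (-1.0), 2H1 (-1.70), 3A4 (-1.78), 47C2 (-1.58), 45G3 (-1.28) and 8G12 (-0.59), and at -0.25 did not pass in 17H5. EPCAM was also lower in 2C11 (-0.32), 2H1 (-0.78), 3A4 (-0.73), 47C2 (-0.49) and 45G3 (-0.39). The keratins did not follow: KRT8 was higher in 2H1 and 3A4 (0.38 in each) and lower in 17H5 (-0.38). KRT18 and KRT19 passed in no clone against parental. LYZ was higher in 2C11 (2.41), 2H1 (3.69), 3A4 (2.5), 47C2 (1.54), 45G3 (1.66) and 8G12 (1.2), but those are also the only clones through which it passed the filter, and it did not pass the test in 16F8 (0.54) or 17H5 (0.63). HBB passed in no clone against parental. The part of these markers in the members' differences was not tested.

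The R140Q clones lay nearer to parental. In 8G12, 14 members were lower and 1 higher (7.05% and 11.4% of all genes), with a median of -0.41. The 14 included ASNS, TRIB3, SLC7A11, ATF5, CEBPG and GDF15, whereas DDIT3, CHAC1, ATF3, SESN2 and STC2 did not pass. In 17H5, 3 members were lower (ASNS, ATF5 and NUPR1) and 4 higher (ATF3, CHAC1, DDIT3 and SESN2), against 4.97% and 6.89% of all genes, with a median of -0.07. The counts in 17H5 were small and moved with single arrays: without 17H5 replicate 2 they were 0 lower and 2 higher, and without either parental array 1 was lower. Without the 4 arrays with high poly-A controls, 10 members were lower and 1 higher in 8G12, and 4 lower and 6 higher in 17H5.

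**Figure D3:**
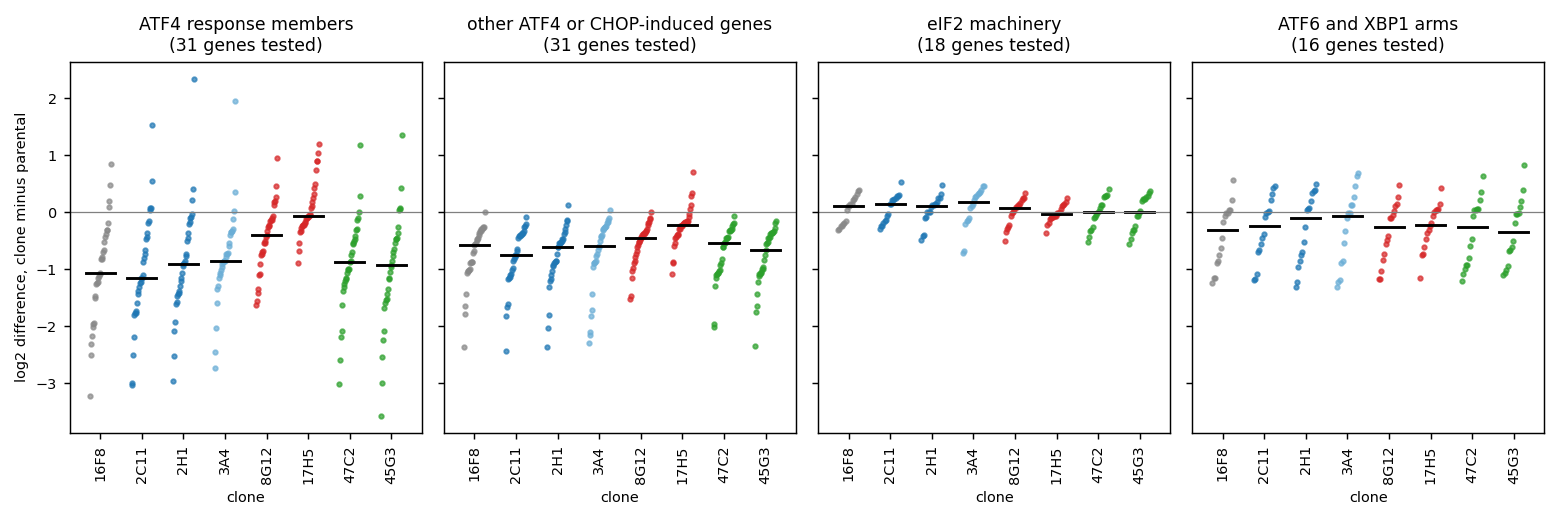
Log2 difference of each targeted clone from parental (y axis) for the tested genes of 4 lists (panels); each point is a gene and each bar the median. For the members the medians run from -1.15 in 2C11 to -0.07 in 17H5; for the eIF2 machinery they lie between -0.04 and 0.18.

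Against 16F8, the other wild-type reference, the members' direction changed in the R140Q clones. In 17H5, 19 of the 31 members were higher and none was lower (4.42% and 4.13% of all genes), with a median of 0.81 against -0.005 for all genes. With single arrays left out 13 to 21 members were higher in 17H5, and with quantile normalization 23. In 8G12, 9 members were higher and none lower (0.526% and 0.104%), with a median of 0.32. These 9 were ATF3, CHAC1, DDIT3, PPP1R15A, SESN2, SLC1A4, SLC7A11, STC2 and TRIB3. They make up 9 of the 66 genes that were higher in 8G12 than in 16F8 over the whole array. The count of 9 became 6 with the probe set of highest variance, 7 with the mean of probe sets and 10 with quantile normalization. At an unadjusted limma p under 0.05, 25 members differed in 17H5 and 13 in 8G12, but the share of all genes at that threshold was not counted. Without the 4 arrays with high poly-A controls, 14 members were higher in 17H5 and 8 in 8G12.

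The other mutant clones differed less from 16F8. In 2C11 1 member was called, SLC7A11, as higher, against 0.981% of all genes called higher and 1.28% called lower. In 45G3 NUPR1 alone was called, as lower (1.22% of all genes lower, 0.949% higher). In 47C2 GDF15, SLC1A4 and SLC7A11 were higher and none was lower (2.28% and 4.13%). 2H1 had 3 lower (ASNS, EIF4EBP1 and PYCR1) and 4 higher (CBS, GDF15, SLC1A4 and SLC7A11), against 10.0% and 6.44% of all genes, and 3A4 had 3 lower (ALDH18A1, CTH and PYCR1) and 6 higher (CHAC1, GDF15, NUPR1, SESN2, SLC7A11 and STC2), against 16.0% and 10.3%. CBS passed the filter only through 2H1 and 3A4, so its call in 2H1 does not count as support. Member medians in these 5 clones ran from -0.05 to 0.20. Single arrays moved these small counts: without 16F8 replicate 1 the higher calls were 2 in 2H1 and 3 in 3A4, and without 16F8 replicate 2 they were 1 in 47C2. Leaving out either array of 2H1 left 1 member lower there, and leaving out its replicate 2 left 2 higher. The higher count in 47C2 was also 1 without either of its own arrays, and the call in 2C11 was lost without either of its arrays or 16F8 replicate 2. In 45G3, 1 member was called higher without its replicate 1 and 2 were lower without its replicate 2. Without the 4 arrays with high poly-A controls, the higher calls were 3 in 2H1 and 4 in 3A4.

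**Figure D4:**
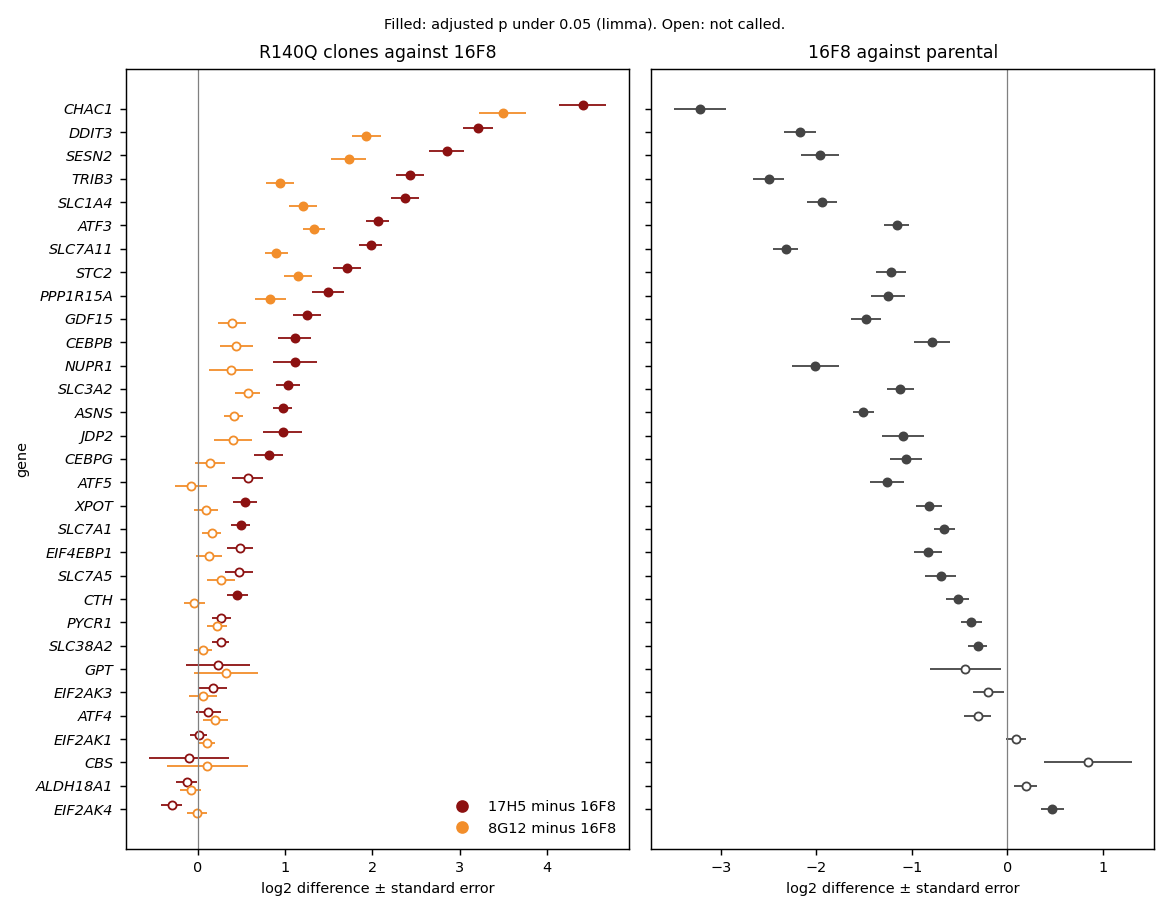
Log2 differences with standard errors (x axes) for the 31 tested members (y axis): both R140Q clones minus 16F8 on the left, and 16F8 minus parental on the right; filled points had a limma adjusted p under 0.05. CHAC1 is highest on the left at 4.41 in 17H5 and 3.49 in 8G12 and lowest on the right at -3.22; both panels use the same 16F8 arrays.

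The 2 R140Q clones also differed from each other. In 17H5, 10 members were higher than in 8G12 and none was lower (1.58% and 1.79% of all genes), with a median of 0.56. They were TRIB3 (1.49 ± 0.16, limma adjusted p = 3.34e-05), DDIT3 (1.28 ± 0.17, 0.00021), SLC1A4 (1.17 ± 0.16, 0.000416), SESN2, SLC7A11, GDF15, ATF3, CEBPG, ASNS and CTH. CHAC1, at 0.92 ± 0.27, did not pass (0.069). The count fell to 6 without the 4 arrays with high poly-A controls or without either array of 17H5, and to 4 without 8G12 replicate 2, and it was 16 with quantile normalization. Within the R132H pair, 3 members were higher in 2H1 than in 2C11 (ATF3, GDF15 and SLC7A11; 2.14% of all genes) and PYCR1 was lower (2.46%). Within the R172K pair, 3 were higher in 47C2 than in 45G3 (GDF15, NUPR1 and SLC7A11; 1.06%) and none was lower (1.88%). In these pairs the 3 higher calls fell to 1 without any single array of 2H1, without 2C11 replicate 1, or without either array of 47C2. The call of PYCR1 was lost when any of 9 arrays was left out.

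With the clone as the replicate, few members could be called. Here and below, shares of all genes are for the adjusted p. No such share was counted for the unadjusted p, so those counts have no background to be set against. For the 7 mutant clones against both wild-type clones, limma on clone means called none of the 31 members (0.0% of all genes; 1 member at an unadjusted p under 0.05), with a median of -0.19. Against parental alone the median was -0.80 with no member called (0.662% of all genes) and 15 at an unadjusted p under 0.05. Against 16F8 alone the median was 0.20, with no member called (0.00798% of all genes) and 0 at an unadjusted p under 0.05. The sign of the median over the 7 mutant clones thus depended on which wild-type clone was the reference. Against 16F8 the medians of single clones were 0.81 in 17H5 and 0.32 in 8G12. In the other mutant clones they ran from -0.05 (2C11) to 0.20 (3A4). CHAC1 was -1.79 ± 1.43 against parental and 1.43 ± 1.43 against 16F8, and TRIB3 was -2.21 ± 0.87 and 0.29 ± 0.87.

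Parental against the mean of the 8 targeted clones gave a median of 0.85 and 1 called member, ATF5, higher by 1.04 ± 0.21 (limma adjusted p = 0.0354; 0.606% of all genes were called higher), with 15 members at an unadjusted p under 0.05. The call of ATF5 was lost when any of 2C11, 2H1, 16F8, 8G12, 47C2 or 45G3 was left out, and without 17H5 10 members were called. The share of all genes called without 17H5 was not counted, so the count of 10 has no background. IDH2-mutant against IDH1-mutant clones gave no called member (0.00798% of all genes; 2 at an unadjusted p under 0.05), with a median of 0.25. R140Q against R172K clones gave a median of 0.44 and no called member (0.0% of all genes), with 12 at an unadjusted p under 0.05. The largest of these differences was that of CHAC1, 3.73 ± 0.82 (limma adjusted p = 0.495), followed by DDIT3 at 2.61 ± 0.61. Against both wild-type clones together, the median was 0.08 in the R140Q clones, -0.41 in the R172K clones and -0.44 in the IDH1-mutant clones. No member was called in any of these comparisons, and 0.0% of all genes were called in each (5, 3 and 6 members at an unadjusted p under 0.05).

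Other genes known to be induced by ATF4 or CHOP were also mostly lower in 16F8 than in parental. Of 34 such genes, 31 were tested. Compared with parental, 24 were lower in 16F8 and none was higher (9.57% and 12.4% of all genes), with a median of -0.57. Compared with 16F8, 13 were higher in 17H5 (4.42% of all genes; median 0.35) and 2 in 8G12 (0.526%; median 0.08), and none was lower. PCK2, the mitochondrial phosphoenolpyruvate carboxykinase, read 1385.7 and 1233.2 in parental, 1026.5 and 973.8 in 17H5, 491.1 and 417.4 in 8G12 and 251.2 and 252.2 in 16F8. It fell by 2.37 ± 0.11 in 16F8 (limma adjusted p = 4.1e-10) and rose against 16F8 by 1.98 ± 0.11 in 17H5 (7.68e-09) and 0.84 ± 0.11 in 8G12 (0.000498). PHGDH, which opens serine synthesis, and the amino acid transporter SLC43A1 also rose in 17H5 against 16F8, by 0.76 ± 0.14 (0.00218) and 1.36 ± 0.20 (0.000441). In 8G12 they did not pass, at 0.49 ± 0.14 and 0.75 ± 0.20. The folate enzyme ALDH1L2, with low signals, gave 0.89 ± 0.28 in 17H5 (0.0597).

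The core machinery around eIF2, 18 tested genes for eIF2 and eIF2B subunits, phosphatase subunits and signalling partners, showed small differences in both directions. Differences among the clones were called for 12 of the 18, against 52.4% of all genes. Against parental, 2 were lower and 3 higher in 16F8 (9.57% and 12.4% of all genes), 2 and 8 in 3A4 (19.6% and 17.6%) and 5 and 3 in 45G3 (14.7% and 15.1%), with medians of 0.11, 0.18 and 0.01. No difference from parental in these 3 clones was below -0.71 or above 0.45. In 17H5 against 16F8 1 was higher (4.42% of all genes), PPP1R15B, the constitutive phosphatase subunit, by 0.45 ± 0.09 (limma adjusted p = 0.00578). OMA1, the protease that relays mitochondrial stress, was higher in 16F8 than in parental by 0.37 ± 0.11 (0.0215).

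The ATF6 and XBP1 arms, the part of the unfolded protein response that raises chaperones, followed the members only in part. Of 16 genes, 8 were lower and 1 higher in 16F8 than in parental (9.57% and 12.4% of all genes; median -0.32), but in 17H5 against 16F8 2 were higher and none lower (4.42% and 4.13%; median 0.04). Those 2 were ERN1, the sensor IRE1, by 1.18 ± 0.14 (limma adjusted p = 6.8e-05) and ATF6 by 0.49 ± 0.13 (0.0246). ERN1 read 586.0 and 601.5 in parental and 555.2 and 663.3 in 17H5, and 285.6 and 247.4 in 16F8. DNAJB9, a chaperone induced by XBP1, was lower than parental in 16F8 (-1.15 ± 0.15, 2.86e-05) and in 17H5 (-1.16 ± 0.15, 0.000107), where DDIT3 and CHAC1 were higher than parental. XBP1 gave 0.44 ± 0.16 in 17H5 against 16F8 (0.0902).

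IDH2 itself was higher in the R140Q clones than in 16F8, by 0.88 ± 0.21 in 17H5 (limma adjusted p = 0.0148) and 1.14 ± 0.21 in 8G12 (0.0122), and IDH1 was lower in 16F8 than in parental (-0.72 ± 0.12, 0.000356). The part of these levels in the members' differences was not tested.

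The promoter matches can be set beside these differences. Of the 8 tested members with a TGATGNAA match, 8 were lower in 16F8 than in parental, 8 were higher in 17H5 and 3 were higher in 8G12 than in 16F8. Of the 17 tested members with a window and no match, the counts were 12, 9 and 5. The shares of all genes tested in these 3 comparisons were 9.57%, 4.42% and 0.526%. Calls among other genes with a match were not counted, and members with and without a match were not tested against each other. Members without these letters in the window include DDIT3, TRIB3 and SESN2, whose differences were among the largest, and elements outside the window were not searched.

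The other probe sets of the members mostly gave the same direction. Of 28 further probe sets of 18 genes that passed the filter, 27 had the sign of the probe set used for 16F8 against parental, 26 for 17H5 against 16F8 and 23 for 8G12 against 16F8. The exception for 16F8 against parental was a dim SLC1A4 probe set with a difference of 0.16. For TRIB3 the second probe set gave -2.84, 2.88 and 1.23, and for SESN2 it gave -1.05, 2.26 and 0.95. For XPOT it gave -0.54, 0.05 and -0.27, where the probe set used gave -0.82, 0.54 and 0.09.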

How the data were processed

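The authors deposited 1 intensity per probe set and array, a MAS5 signal per the submitters' processing notes, whose settings no label or header names. RNA was amplified and biotin-labelled, per the labels' protocols. The middle 96% of probe sets averaged 149.98 in every array, and no further scaling was applied. Of 54675 probe sets, 41091 carried 1 gene, 1801 several and 11721 none. The number of arrays, 2 per clone, limits precision.

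Signals were taken as log2(signal + 2.2), 2.2 being the 25th percentile of all values. Testing required both replicates of some clone to reach their array's median, and a gene was its probe set of highest mean. Clones were compared with limma 3.58.1 (R 4.3.3; lmFit, eBayes with trend; 9 residual degrees of freedom), two-sided, with Benjamini-Hochberg adjustment over 12537 genes at 0.05. Genotypes were compared on clone means. The fit was also run on simulated data, with results not given here. The members, lists and tests were chosen with earlier results of these data known. The comparisons within R140Q, R132H and R172K pairs and of R140Q with R172K were added after the data were seen. Values are given by array, with the 6 IDH1-mutant arrays mostly as lowest, median and highest, for ATF4, ATF3, DDIT3, TRIB3, CHAC1, ASNS, SESN2 and SLC7A11 and for the 8 other members with the widest range of clone means. Other members, and up to 4 genes of each other list, are named if called. Alternatives were offsets, filters, quantile normalization, other probe sets, variance models, a random clone block, a replicate block, and the omission of arrays or clones.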

Additional observations from a re-analysis of the deposited data

Results flagged for a closer look

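CEBPG, a dimer partner of ATF4, was lower than 16F8 in all 3 IDH1-mutant clones and higher in all 4 IDH2-mutant clones by clone means, with a mean difference of 0.51 between IDH2-mutant and IDH1-mutant clones on the log2 scale. The opposite signs were not tested against each other beyond this difference, which did not pass in limma on clone means (0.51 ± 0.23, adjusted p = 0.38). The deviations from 16F8 in 2H1 (-0.02), 3A4 (-0.05) and 8G12 (0.14) lie within their standard error of 0.17, so that among the IDH1-mutant clones only that of 2C11 (-0.32) exceeded it, and it was not called (adjusted p = 0.436).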

How the results depend on the processing

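For the 16 members given in every array, compared between 16F8 and parental and between each R140Q clone and 16F8, 1390 alternative values kept direction and side of the threshold, 28 lost the call, 11 gained it and 5 changed sign. The sign changes were in ATF4, in 17H5 against 16F8 (-0.05 to 0.29 over single arrays left out, -0.05 without 16F8 replicate 1, and -0.05 without the 4 arrays of high poly-A signal), and in CBS (-0.19 to 1.88 in 16F8 against parental, the lowest without parental replicate 2; -0.50 to 0.30 in 17H5 against 16F8, the highest without 17H5 replicate 1; and -0.08 in 8G12 against 16F8 without those 4 arrays). With the main settings neither gene was called in these comparisons. With quantile normalization ATF4 passed in 16F8 against parental (-0.21, limma adjusted p = 0.0474) and in 17H5 against 16F8 (0.24, 0.0436). CBS in 16F8 against parental was 1.97 without those 4 arrays. Members higher in 16F8 than in parental numbered 1, and 2 with the probe set of highest variance, with the mean of probe sets and without the 4 arrays. Higher calls summed over the 7 mutant clones against parental were 13, and 20 with the mean of probe sets. Members higher in 17H5 than in 8G12 numbered 16 with quantile normalization and 6 without the 4 arrays, against 10. With the clone as a random block, members called numbered 6 for the 7 mutant clones against parental, 7 for parental against the targeted clones and 5 for R140Q against R172K clones. That fit used the same correlation between arrays of a clone for all genes. Parental against the targeted clones gave 0 with the probe set of highest variance or no variance trend and 3 without the 4 arrays. Shares of all genes were counted for the main settings only, so counts under other settings have no background to be set against. The causes were not tested.

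Leaving out 1 array at a time, the members lower in 16F8 than in parental numbered 20 to 24 and those higher 0 to 2; in 17H5 against 8G12 4 to 14 were higher. Calls summed over the 7 mutant clones were 116 to 136 lower and 9 to 14 higher against parental, and 5 to 10 lower and 29 to 47 higher against 16F8. Leaving out 1 clone at a time, 0 to 7 members were called for the mutant clones against parental, 7 without 17H5, 0 to 10 for parental against the targeted clones and 0 to 1 for R140Q against R172K clones.

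The replicate numbers showed no pairing: among 36 clone pairs the correlation of same-numbered deviations ran from -0.352 to 0.383, above 0.1 in 4. With the replicate number as a block, 24 members were again lower in 16F8 than in parental, and the counts of member calls in the other clone comparisons were as without it.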
